A study of Mus musculus with 15 samples.

Results

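Imprinted genes that control growth were followed in hematopoietic stem cells (HSC), the bone marrow cells that give rise to all blood lineages. The genes are 10 listed by name: H19, Meg3, Rian, Mirg, Igf2r, Grb10, Gnas, Ndn, Plagl1 and Impact. Of these, 9 had a row among the 16154 genes of the deposited count table, and Mirg had none. The rule takes them by name and uses no measured value. RNA was sequenced from HSC of C57BL/6 mice, given as female by the labels, with 1 library per mouse. The 5 young mice were 6 to 12 weeks old and untreated, the 5 aged mice were 20 to 24 months old and untreated, and the 5 NR-treated aged mice (aged + NR) were of the same 20 to 24 months and received nicotinamide riboside (NR), a precursor of NAD, for 2 months, at 3 mg/ml in the drinking water by the study's methods. The comparisons therefore ask how these genes differ with age and whether treatment of aged animals changes them.

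Where a gene is imprinted, only the copy from a single parent is active. Which copy is silenced is marked by DNA methylation laid down in the egg or sperm. Many imprinted genes act on growth: several maternally expressed genes restrain it and several paternally expressed genes promote it, with exceptions on both sides. In HSC the H19 and the Meg3 loci have been linked to stem cell maintenance by work in knockout mice. Whether the RNAs themselves are needed in adult or aged HSC was not tested here. The libraries here count transcripts and do not separate the parental copies, so they give the total level of each gene. Whether a gene called imprinted here is imprinted in HSC was not measured.

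The maternally expressed long non-coding RNAs of this set are also host transcripts of microRNAs, short RNAs that pair with target messages mainly through bases 2 to 8, the seed. RefSeq places 1 miRNA hairpin inside H19, 1 inside Meg3, 3 inside Rian and 14 inside Mirg on the same strand. One mature sequence per host is shown to make this second product of each RNA visible, 5′ to 3′ on GRCm38.p6, with the seed in capitals:
mmu-miR-675-5p (H19, chr7:142577112-142577133, minus strand): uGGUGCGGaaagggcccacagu
mmu-miR-770-5p (Meg3, chr12:109563710-109563731, plus strand): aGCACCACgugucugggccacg
mmu-miR-370-3p (Rian, chr12:109618305-109618326, plus strand): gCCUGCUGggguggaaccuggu
mmu-miR-410-3p (Mirg, chr12:109743764-109743784, plus strand): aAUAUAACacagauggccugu
The seeds of the 4 sequences differ from each other. Mature miRNAs carry no poly(A) tail and are not measured by these poly(A)-primed libraries, so the values below are those of the host transcripts alone.

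Meg3 was the member called between aged and NR-treated aged HSC, and the 250 bases before its RefSeq start are shown because methylation of CpG dinucleotides around this promoter is part of how the locus is imprinted. The window lies on the plus strand at chr12:109540746-109540995 of GRCm38.p6, and CpG dinucleotides are in capitals:
Meg3 promoter: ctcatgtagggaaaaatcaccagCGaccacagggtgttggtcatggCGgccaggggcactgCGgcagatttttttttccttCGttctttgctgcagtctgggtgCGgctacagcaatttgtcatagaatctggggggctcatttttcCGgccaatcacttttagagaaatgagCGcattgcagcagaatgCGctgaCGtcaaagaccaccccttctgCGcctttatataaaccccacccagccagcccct
It holds 10 CpG, against a median of 6 over the 32851 RefSeq promoter windows of the same length. RefSeq gave 13 promoters for 8 of the members. Among them the CpG number ran from 0 for Rian and for the second start of Meg3 to 40 for one start of Grb10. The hexamer TGCCGC, known as the binding sequence of the imprint-keeping zinc finger protein Zfp57, was searched on both strands. It was in 2 of the 13 windows, one of Meg3 and that of Plagl1, and in 8.68% of all windows. Methylation was not measured in this series.

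Sequencing depth was uneven. Total counts ran from 2122221 to 3631395 in young, from 764119 (aged replicate 2) to 13318989 (aged replicate 3) in aged and from 2486399 to 3595384 in NR-treated libraries. All 10 listed HSC markers had a row, with summed levels of 2099 to 2484 CPM, counts scaled to a library of 1000000, in young, 2440 to 3052 in aged and 2169 to 2756 in NR-treated libraries. Young replicates 1 and 5 stood apart, with 99.7 and 105 CPM summed over 4 Y-linked genes, against 0.731 to 3.00 CPM in all other libraries. The same 2 libraries also held 420 and 472 CPM of Xist, the RNA of the inactive X, against 557 to 895 CPM in the other young, 293 to 429 CPM in aged and 512 to 853 CPM in NR-treated libraries. The Y-linked levels of these 2 libraries go against the female label, while their Xist levels lie within the range of the other libraries. Both are kept, and the values without them are given where a call or a direction changes. Transcripts of mature blood cells differed between the groups. Of the 9 erythroid, 9 neutrophil, 9 B cell and 8 monocyte and macrophage markers, 9, 9, 8 and 8 had a row. Their summed levels in young, aged and NR-treated libraries were 2309 to 4650, 5540 to 8974 and 1945 to 3061 CPM for erythroid markers, 23.7 to 5316, 1043 to 1674 and 15.7 to 166.9 CPM for neutrophil markers, 106.9 to 796.6, 598.3 to 4233 and 91.8 to 164.7 CPM for B cell markers, and 378.1 to 2491, 687 to 1612 and 301 to 489.1 CPM for monocyte and macrophage markers. By the study's methods, cells carrying B220, Mac-1, Gr-1 or Ter119 were depleted before the sort. In bulk libraries, fewer cells of a type and less RNA per cell cannot be told apart.

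Of the 9 members, 2 were called between aged and young HSC (quasi-likelihood test of edgeR, with p-values adjusted over the 16154 genes by Benjamini and Hochberg and a threshold of 0.05), and both, Ndn and Impact, were higher in aged HSC. Over all genes 19.3% were called in this comparison, 9.68% higher and 9.63% lower. After NR treatment of aged mice 1 member, Meg3, was called and was higher, where 8.07% of all genes were called, 3.88% higher and 4.18% lower. Between NR-treated aged and young HSC 2 were called, with Ndn higher and Gnas lower in NR-treated HSC, where 4.47% of all genes were called, 2.56% higher and 1.91% lower. With age and with NR treatment, 2 of 9 and 1 of 9 lie near the background share and are no result about the genes as a set. The 2 calls between NR-treated aged and young HSC went in opposite directions. Both were lost with only the 2 groups compared and with thinned counts, so they are no result about the set either. The median log2 fold change of the members was -0.12 for age, -0.50 for NR treatment and -0.13 for NR-treated against young HSC, beside -0.03, 0.02 and -0.0046 over all genes. The table keeps only genes above 2 CPM in at least 2 libraries. Plagl1 met this through 2 young libraries alone, so its level in the other groups is low in part by selection. H19 was above 2 CPM in 5 young, 3 aged and 1 NR-treated library, so it was kept through the young and aged groups. The other 7 of the 9 members met the filter within each group.

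**Figure D1:**
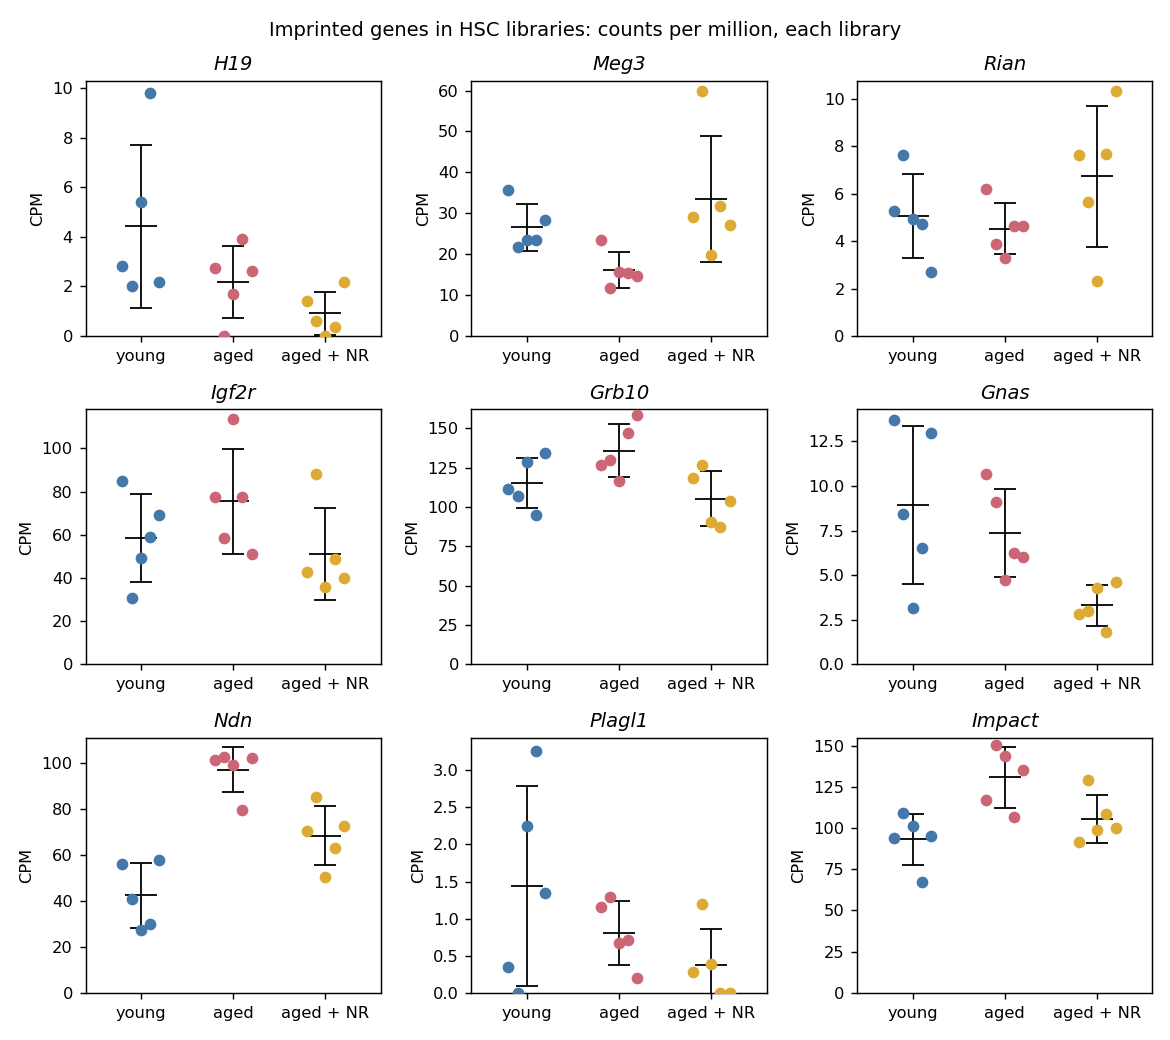
Level of each imprinted gene with a row in every HSC library, as CPM scaled by TMM effective library sizes (y axis, from 0) for young, aged and NR-treated aged mice (x axis). Points are libraries and bars show the mean and SD of 5. Ndn had no overlap between young (27.4 to 57.7 CPM) and aged (79.5 to 102 CPM) libraries. Gnas had none between aged (lowest 4.73 CPM) and NR-treated (highest 4.63 CPM) libraries, a narrow gap, and that difference was not called. The share of all genes without overlap was not computed.

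Ndn encodes necdin, a MAGE family protein that restrains entry into the cell cycle and is expressed from the paternal copy. It lies on chromosome 7, 62346569 to 62350262 of GRCm38, plus strand, in a single exon. It had 56.1, 40.6, 27.4, 30.1 and 57.7 CPM in young replicates 1 to 5 (42.4 ± 14.2, SD, n = 5). In aged replicates 1 to 5 it had 101, 102, 99.2, 79.5 and 102 CPM (96.9 ± 9.85, SD, n = 5). Every aged library lay above every young library. In NR-treated replicates 1 to 5 it had 70.3, 85.3, 50.6, 62.8 and 72.7 CPM (68.3 ± 12.8, SD, n = 5). These lay between the other groups in the mean and overlapped with both.

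Ndn rose with age by 1.18 on the log2 scale (standard error 0.18, adjusted p = 0.000199), a 2.26-fold increase. The call was made in all 10 other settings and in all 15 fits that left out 1 library, with log2 fold changes of 1.04 to 1.56. The highest young libraries were replicates 1 and 5, and without them the log2 fold change was larger, at 1.56. NR-treated aged HSC were higher than young HSC by 0.68 (standard error 0.19, adjusted p = 0.0390), but this call was lost without any one of young replicates 2, 3 and 4 and NR-treated replicates 1, 2, 4 and 5, at 0.56 to 0.71, as well as when only the 2 groups were fitted (0.68) or counts were thinned to the smallest total (0.57). NR-treated HSC differed from untreated aged HSC by -0.50 (standard error 0.18, 95% confidence interval -0.87 to -0.12) which did not pass the threshold (adjusted p = 0.0904). It did pass without young replicates 1 and 5 and when only the 2 groups were fitted, at -0.50 and -0.49. The order of the means was thus aged, NR-treated, young, and the neighbours aged and NR-treated were not separated by the test.

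The genes whose levels followed that of Ndn most closely over the 15 libraries were Procr (Pearson r = 0.954) and Kcnb2 (0.953), out of 10063 genes searched. Procr encodes the endothelial protein C receptor, a surface marker of HSC. These libraries share groups and depth differences, so the correlations describe a shared pattern across the 3 groups. Procr was higher in aged than in young HSC by 1.27 and higher in NR-treated aged than in young HSC by 0.96, both called.

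Ndn belongs to the imprinted cluster of chromosome 7 that also holds Mkrn3, Peg12 (paternally expressed), Snrpn and Ube3a, with Atp10a at its edge. Snrpn, which encodes a spliceosomal protein, had 1.62 to 2.69 CPM in young and 3.21 to 6.00 CPM in aged libraries. It rose with age by 1.06 (standard error 0.33, adjusted p = 0.0305), and it is a low gene. Mkrn3, a paternally expressed ubiquitin ligase gene, had a log2 difference of 0.84 (adjusted p = 0.0622) and did not pass. Neither did Peg12 at 0.29, Ube3a at -0.31 and Atp10a at 0.34. Of the 5 neighbours of Ndn, 1 was therefore called with age, where 19.3% of all genes were called. After NR treatment the differences of these neighbours ran from -0.55 for Snrpn to 0.11 for Ube3a without a call.

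**Figure D2:**
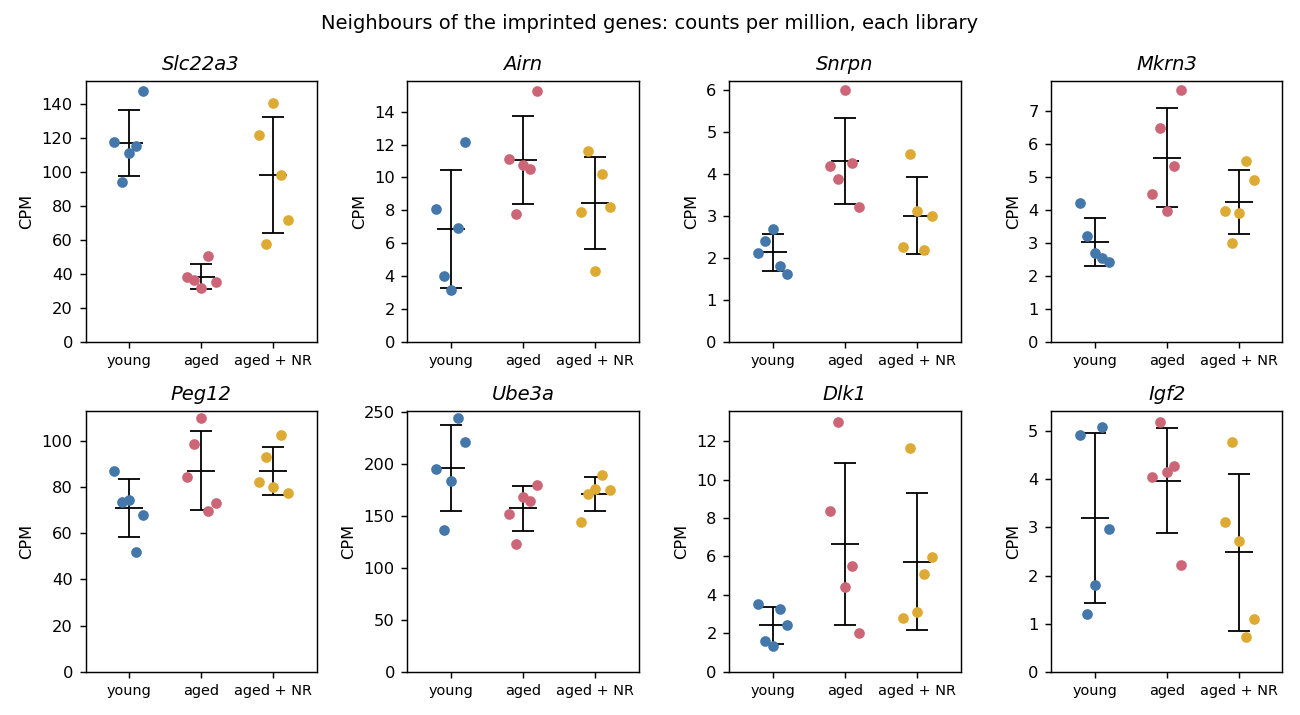
Level of genes listed as imprinted that lie in the same cluster as a member, in CPM (y axis, from 0). They are Slc22a3 and Airn beside Igf2r, Snrpn, Mkrn3, Peg12 and Ube3a beside Ndn, Dlk1 beside Meg3, and Igf2 beside H19. Points are young, aged and NR-treated aged libraries (x axis), with mean and SD of 5. Imprinting in HSC was not measured. Slc22a3 shows aged libraries of 31.6 to 50.3 CPM below all young and all NR-treated libraries.

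Meg3, Rian and Mirg are maternally expressed non-coding RNAs of the Dlk1-Dio3 cluster on chromosome 12. Meg3 (109541001 to 109571726, plus strand) had 35.8, 21.7, 23.4, 23.6 and 28.3 CPM in young replicates 1 to 5. It had 23.6, 11.7, 15.6, 15.3 and 14.7 CPM in aged and 29.1, 59.9, 19.8, 31.8 and 27.2 CPM in NR-treated replicates 1 to 5. The group means were 26.5 ± 5.73, 16.2 ± 4.42 and 33.6 ± 15.4 CPM (SD, n = 5 each). Aged libraries were lowest apart from aged replicate 1, which reached the young range, and NR-treated replicate 2 was the highest of all libraries.

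Meg3 rose after NR treatment of aged mice by 1.01 (standard error 0.25, adjusted p = 0.0191), a 2.01-fold increase. The groups overlapped in 1 aged and 1 NR-treated library. The call did not hold without NR-treated replicate 2, where the log2 fold change was 0.69, nor without aged replicate 3 (0.99) or aged replicate 5 (0.96), nor with thinned counts (0.76). With age the difference was -0.67 (standard error 0.25, 95% confidence interval -1.19 to -0.15, adjusted p = 0.0642), just outside the threshold. It passed in 3 of the 9 other settings, at -0.69 with DESeq2, -0.80 with library totals and -0.67 when only the 2 groups were fitted, and without aged replicate 1, NR-treated replicate 2 or NR-treated replicate 3. Without young replicates 1 and 5, the 2 highest young libraries for Meg3, it was -0.45 and did not pass. Meg3 in NR-treated and in young HSC differed by 0.34 (95% confidence interval -0.17 to 0.84, adjusted p = 0.512). An antisense gene, Gm26906, covers 426 of the last 1000 exonic bases of Meg3, where 3′ biased reads fall. Gm26906 has no row. The strand setting of the counting is not given in the sources used here. How reads over the bases shared by the 2 genes were counted is therefore not known, and the values are those of reads assigned to Meg3.

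Rian (chromosome 12, 109603940 to 109661716, plus strand), which hosts small nucleolar RNAs of the box C/D type, was measured on few reads, with 3 to 43 counts per library. It had 2.70 to 7.64 CPM in young, 3.30 to 6.21 in aged and 2.33 to 10.3 CPM in NR-treated libraries. All groups overlapped. Its differences were -0.12 with age (95% confidence interval -0.86 to 0.62), 0.56 with NR treatment (-0.15 to 1.28) and 0.45 between NR-treated and young HSC (-0.28 to 1.18), none of them called. The sign with age turned without young replicate 2 (0.08) and without aged replicate 3 (0.0065). Dlk1, the paternally expressed growth factor gene of the cluster, had mean levels of 2.43, 6.65 and 5.73 CPM in young, aged and NR-treated HSC, with a log2 difference of 1.25 with age that did not pass (adjusted p = 0.0739). The 3 genes most similar to Meg3 across libraries were Casz1 (r = 0.849), Tfr2 (0.847) and Pi4kb (0.842).

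H19, the maternally expressed RNA that opposes Igf2 at its locus, lies on chromosome 7 (142575529 to 142578143, minus strand). It had 2.81, 2.01, 5.39, 9.80 and 2.16 CPM in young replicates 1 to 5. It had 2.75, 0, 1.69, 3.91 and 2.61 CPM in aged and 1.41, 0.596, 0, 0.365 and 2.18 CPM in NR-treated replicates 1 to 5. Counts per library ran from 0 to 27, and the aged library at 0 is the shallowest, in which 3 counts are 3.89 CPM on the same TMM scale. The means were 4.43 ± 3.29, 2.19 ± 1.46 and 0.910 ± 0.878 CPM in young, aged and NR-treated libraries (SD, n = 5 each), and all groups overlapped. The difference between NR-treated aged and young HSC was -2.14 (standard error 0.64, 95% confidence interval -3.46 to -0.81) and did not pass (adjusted p = 0.0604), and the others were -0.81 with age and -1.32 with NR treatment. It did pass with the likelihood ratio test, DESeq2 and without young replicates 1 and 5, at -2.15, -2.20 and -2.53, and without young replicate 2 or NR-treated replicate 5. H19 met the filter on level through the young and aged groups, so its NR-treated level is low in part by selection. H19 is also abundant in non-blood cells. Of 10 stromal markers 5 had a row (Col1a1, Col1a2, Cxcl12, Pdgfrb and Sparc), with a summed level of 22.5 to 74.0 CPM in young, 27.98 to 47.1 in aged and 27.0 to 37.8 in NR-treated libraries, of which Col1a2 had means of 23.2 to 27.2 CPM. In NR-treated against young HSC their median difference was -1.37 and 1 of the 5, Sparc, was called lower (-2.34), and with age Sparc and Col1a1 were called lower (-2.18 and -2.60). Their part in the H19 values was not tested. Igf2, the growth factor gene expressed from the paternal copy of this locus, had means of 3.19, 3.97 and 2.48 CPM and was not called.

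**Figure D3:**
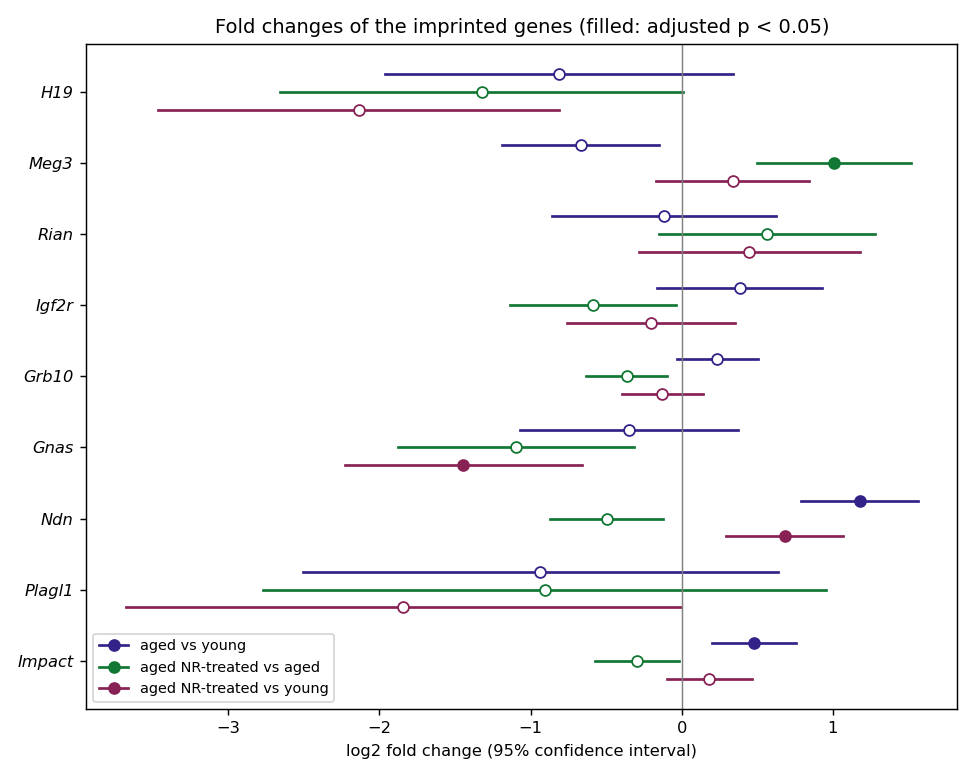
Log2 fold change of each member in the 3 comparisons (x axis), with the 95% confidence interval as a line; filled points passed an adjusted p of 0.05. Ndn lies at 1.18 for aged against young, Meg3 at 1.01 for NR-treated against untreated aged, and Gnas at -1.44 for NR-treated aged against young, while intervals of the low genes H19 and Plagl1 are the widest.

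Igf2r, Grb10 and Gnas act on growth signalling. Igf2r encodes the receptor that takes IGF2 to the lysosome for degradation and lies on chromosome 17 (12682406 to 12769664, minus strand). It had 84.9, 30.9, 49.4, 59.1 and 69.0 CPM in young, 77.5, 58.4, 114, 77.3 and 51.0 CPM in aged and 42.7, 88.2, 35.8, 48.9 and 40.0 CPM in NR-treated replicates 1 to 5. The groups overlapped throughout, and in the NR-treated group replicate 2 was far above the rest. The differences were 0.38 with age (95% confidence interval -0.16 to 0.93), -0.59 with NR treatment (-1.13 to -0.04, adjusted p = 0.166) and -0.20 between NR-treated and young HSC (-0.76 to 0.35). Without NR-treated replicate 2 the difference with NR treatment was -0.88 and passed. The last difference turned to 0.14 without young replicates 1 and 5.

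Of the neighbours of Igf2r, Slc22a3, an organic cation transporter gene, was called in 2 comparisons. It had 94.0 to 147.5 CPM in young, 31.6 to 50.3 in aged and 57.5 to 140 CPM in NR-treated libraries. It fell with age by 1.61 (standard error 0.20, adjusted p = 1.96e-05) and rose with NR treatment by 1.35 (standard error 0.20, adjusted p = 0.00123), without overlap in either comparison. Airn, the paternally expressed RNA that runs antisense through Igf2r, had means of 6.85, 11.1 and 8.44 CPM, with 0.69 as its difference with age (adjusted p = 0.128). Airn and Igf2r share no exonic base in the annotation.

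Grb10, a maternally expressed adaptor protein in most tissues, binds the insulin and IGF1 receptors and dampens their signal. It lies on chromosome 11 (11930508 to 12038683, minus strand). It had 95.05 to 134 CPM in young (median 111), 117 to 158 in aged (median 130) and 87.3 to 127 CPM in NR-treated libraries (median 104), from 100 to 1381 counts per library. The groups overlapped in each comparison. The difference with NR treatment was -0.36 (standard error 0.13, adjusted p = 0.0836), with 0.24 for age and -0.13 for NR-treated against young HSC, and none of them passed in any of the 25 other fits.

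Of the 18 listed genes of insulin and IGF signalling, 16 had a row. With age 2 of them rose and 3 fell, with NR treatment 1 rose and 1 fell, and between NR-treated and young HSC 1 was higher and 2 were lower in NR-treated HSC. Their median differences were -0.28, 0.08 and -0.04. The shares of all genes called were 19.3%, 8.07% and 4.47%, and the list was not tested as a set. Pik3r1, the regulatory subunit of PI3 kinase, rose with age by 0.74 and fell with NR treatment by 0.77. Igf1, the ligand of the IGF1 receptor, fell with age by 1.06 and was lower in NR-treated than in young HSC by a log2 difference of -1.90. Igfbp4, which binds IGFs, fell with age by 0.44, and Ide, an insulin-degrading protease, rose with age by 0.65.

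Gnas encodes the alpha subunit of the stimulatory G protein, which activates adenylyl cyclase, and its locus also gives imprinted transcripts. Whether the transcript of the alpha subunit is imprinted in HSC was not measured. It lies on chromosome 2 (174284320 to 174346744, plus strand). It had 13.7, 8.44, 3.14, 6.53 and 12.9 CPM in young replicates 1 to 5 (8.95 ± 4.42, SD, n = 5). It had 10.7, 9.08, 4.73, 6.22 and 6.03 CPM in aged (7.35 ± 2.45) and 2.82, 2.98, 4.28, 1.83 and 4.63 CPM in NR-treated replicates 1 to 5 (3.31 ± 1.14). All NR-treated libraries lay below all aged libraries, and overlapped with young replicate 3 alone. Counts were 5 to 74 per library.

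Gnas was lower in NR-treated aged than in young HSC by a log2 difference of -1.44 (standard error 0.37, adjusted p = 0.0300). This difference leaned on young replicates 1 and 5, the highest for Gnas at 13.7 and 12.9 CPM. Without both it was -0.87 and did not pass, and the call was also lost without young replicate 1 (-1.25), young replicate 5 (-1.27) or NR-treated replicate 1, 2 or 4 (-1.39, -1.41 and -1.30), with limma-voom (-1.37), with only the 2 groups fitted (-1.44) and with thinned counts (-1.11). Against untreated aged HSC the NR-treated difference was -1.09 (95% confidence interval -1.87 to -0.31, adjusted p = 0.0749). It passed with the likelihood ratio test at -1.10 and without young replicate 3. The difference with age was -0.35 and turned to 0.23 without young replicates 1 and 5. In the annotation, the opposite-strand gene Gm20721 covers 574 of the 606 exonic bases in the last 1000 bases of Gnas, and Nespas overlaps 988 exonic bases elsewhere in the locus. Neither has a row. Since the strand setting is not known, the values are those of reads assigned to Gnas, which may be a part of its transcripts.

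All 20 listed genes of Gs alpha signalling had a row. With age 2 rose and 4 fell, with NR treatment 1 rose, and between NR-treated and young HSC 2 were lower in NR-treated HSC. The medians were -0.15, -0.03 and -0.02. Among all genes 19.3%, 8.07% and 4.47% were called in these comparisons, and the list was not tested as a set. Ptger4, a prostaglandin E2 receptor that couples to Gs, rose with age by 1.26. Gnb4, a G protein beta subunit, fell with age by 0.69 and rose with NR treatment by 0.65, while Gng2, a gamma subunit, fell with age by 0.78. Prkar1a, a regulatory subunit of protein kinase A, rose with age by 0.34.

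Plagl1, a paternally expressed zinc finger transcription factor that arrests the cell cycle, lies on chromosome 10 (13060504 to 13131694, plus strand). It had 0 to 9 counts per library and 0 to 3.27 CPM in young, 0.201 to 1.30 in aged and 0 to 1.19 CPM in NR-treated libraries. A difference could not be resolved at this depth, with intervals of -2.51 to 0.64 for age, -2.77 to 0.96 for NR treatment and -3.68 to -0.0057 for NR-treated against young HSC. The last had an adjusted p of 0.277.

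Impact encodes a protein that binds Gcn1 and thereby keeps the kinase Gcn2 from phosphorylating the translation factor eIF2, and is paternally expressed in mice. It lies on chromosome 18 (12955852 to 12992950, plus strand). It had 93.7, 109, 101, 67.5 and 94.9 CPM in young, 117, 150, 144, 107 and 135 CPM in aged and 91.8, 129, 98.8, 108 and 99.9 CPM in NR-treated replicates 1 to 5. The means were 93.2 ± 15.6, 130.7 ± 18.3 and 105.7 ± 14.5 CPM (SD, n = 5 each). The highest young library lay just above the lowest aged library, and the NR-treated values overlapped with both groups.

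Impact rose with age by 0.48 (standard error 0.13, adjusted p = 0.0177), a 1.39-fold increase. The call was lost without young replicate 4, the lowest young library (0.38), without aged replicate 3, the deepest (0.43), without young replicates 1 and 5 (0.49) and with thinned counts (0.39). With library totals in place of TMM it was 0.35 and did not pass, while the median of all genes moved from -0.03 to -0.16. The difference with NR treatment was -0.30 (95% confidence interval -0.58 to -0.02, adjusted p = 0.169), and that between NR-treated and young HSC was 0.18 (-0.10 to 0.46). The order of the means was aged, NR-treated, young, with only the outer pair separated by the test. The closest genes across libraries were Arid5b (r = 0.916), Shisa5 (0.906) and Gstm1 (0.898).

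Of the 18 listed genes of Gcn2 and eIF2 control, 16 had a row. With age 1 rose and 1 fell, and with NR treatment 2 fell. The medians were 0.14, -0.07 and -0.06 in the 3 comparisons. The share of all genes called was 19.3% with age and 8.07% with NR treatment, and the list was not tested as a set. Asns, the asparagine synthetase gene induced by this pathway, rose with age by 0.73, and Ppp1r15b, a constitutive eIF2 phosphatase subunit, fell by 0.55. Ppp1r15a, the inducible one, fell with NR treatment by 0.82, and Eif2s1, which encodes eIF2 alpha itself, fell by 0.41.

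Of 58 other imprinted genes, 39 had a row. With age 5 rose and 5 fell, with NR treatment 2 rose and 3 fell, and 1 was higher in NR-treated than in young HSC. In these 3 comparisons 19.3%, 8.07% and 4.47% of all genes were called, beside 10, 5 and 1 of these 39. The list was not tested as a set. The medians of the 39 genes were 0.0048, -0.02 and -0.16. Cdkn1c, the cyclin-dependent kinase inhibitor p57 and a maternally expressed brake on HSC cycling, rose with age by 0.87 and fell with NR treatment by 0.75. Kcnq1ot1, the paternally expressed RNA that silences Cdkn1c on its own chromosome copy, fell with age by 1.24 and rose with NR treatment by 1.28. Ampd3, an AMP deaminase gene, rose with age by 1.45 and was higher in NR-treated than in young HSC by 0.95. The comparisons for age and for NR treatment share the aged libraries, so opposite signs in them are not independent.

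Of 18 listed genes that set, keep or act against methylation at imprints, 16 had a row. With age 7 fell, with NR treatment 3 rose and between NR-treated and young HSC 3 were lower in NR-treated HSC, with medians of -0.38, 0.26 and -0.17. Over all genes 9.63% were called lower with age, 3.88% higher with NR treatment and 1.91% lower in NR-treated than in young HSC. The list was chosen with earlier results of these data known, so these counts are no independent test. The genes that fell with age were Dnmt1, Dnmt3a, Dnmt3b, Uhrf1, Trim28, Tet1 and Tet3. These 7 therefore pool genes that set or keep methylation with Tet1 and Tet3, which act against it. Trim28, the corepressor that Zfp57 recruits to imprints, fell with age by 0.82 and rose with NR treatment by 0.81. Dnmt3b, a de novo methyltransferase, fell with age by 1.06 and rose with NR treatment by 0.52, Uhrf1, which brings Dnmt1 to replicated DNA, fell with age by 0.82, and Tet1, which oxidises methylcytosine, fell with age by 0.88.

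**Figure D4:**
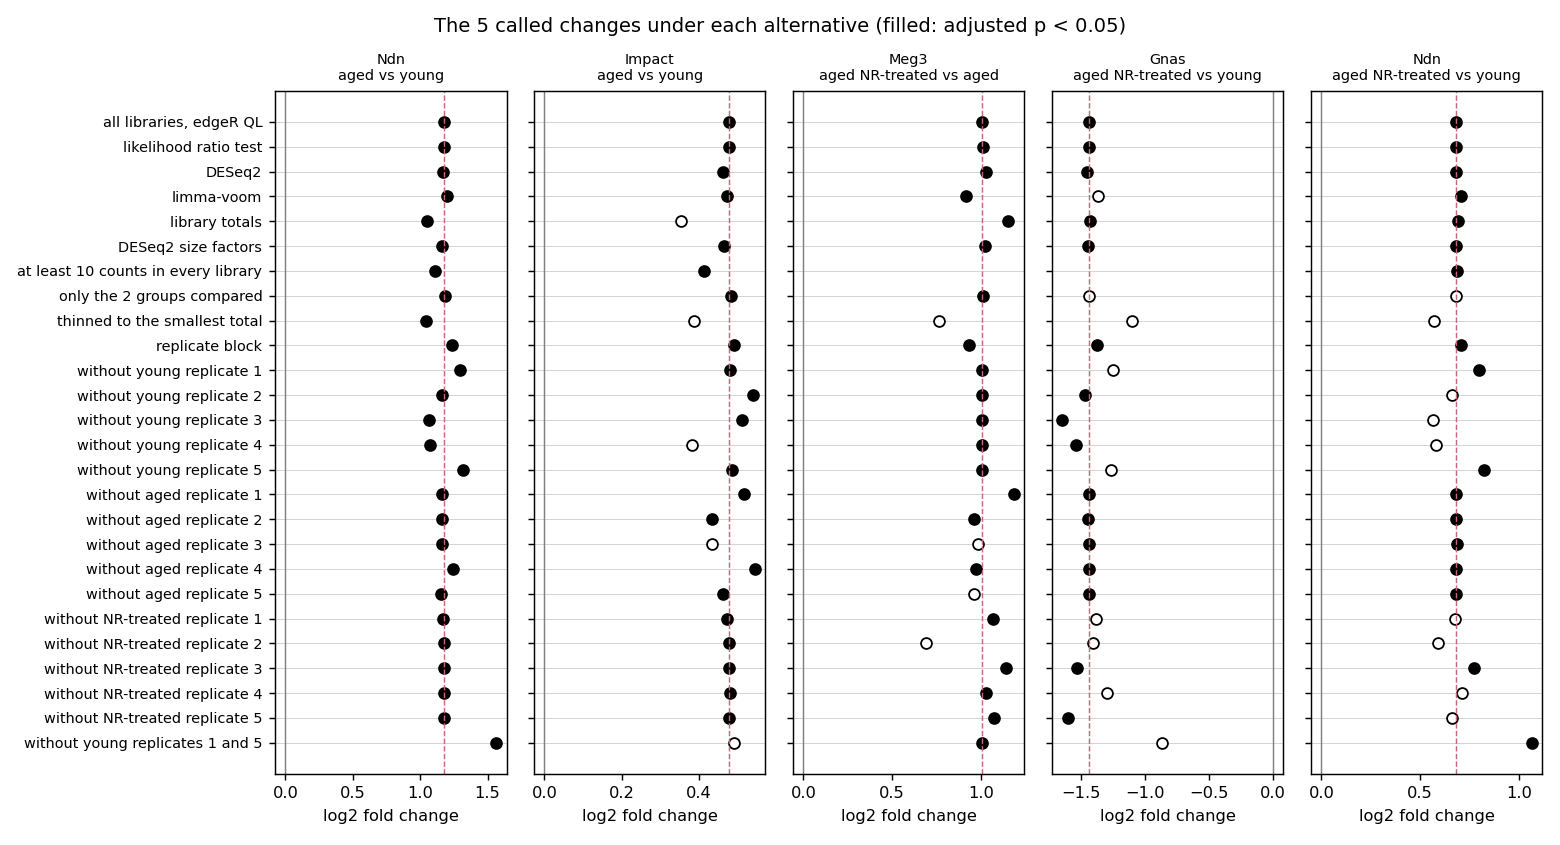
Log2 fold change (x axis) of the 5 called changes of members under each alternative (y axis): other tests and scalings, filters, thinning, the replicate block and libraries left out. Filled points passed an adjusted p of 0.05 and the dashed line is the value with all libraries. Ndn in aged against young HSC stays filled throughout, between 1.04 and 1.56, while the other 4 changes each lose the call in some settings.

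Some mature blood cell markers were also called in these comparisons. Among all genes 4.18% were called lower with NR treatment, 9.68% higher with age and 1.91% lower in NR-treated than in young HSC. With NR treatment, 8 of 9 erythroid, 8 of 9 neutrophil, 4 of 8 B cell and 3 of 8 monocyte and macrophage markers with a row fell. With age, 5 erythroid, 2 B cell and 1 monocyte and macrophage markers rose, and none of the 9 neutrophil markers was called. In NR-treated against young HSC, 5 erythroid, 6 neutrophil and 3 B cell markers were called lower. Of the 10 HSC markers 4 rose with age (Procr, Ly6a, Slamf1 and Mllt3), and 1 of these, Slamf1, fell with NR treatment, although the products of Ly6a and Slamf1 were used to sort the cells. Of 6 megakaryocyte markers 1, Itga2b, rose with NR treatment by 1.07. Of 6 endothelial markers 5 had a row, with a median difference of -0.42 with age, and 1 of them, Kdr, rose with age by 1.55 while Pecam1, Emcn, Tek and Flt1 had -0.44, -0.42, -0.05 and -1.88 without passing. Of 7 T cell markers 5 had a row, with a median of -1.19 with NR treatment. Lat had 0.32 (adjusted p = 0.0784), Cd4 0.66, Cd3d -2.49, Cd3g -1.83 and Trac -1.19, and none of these 5 values passed. The part of other cell types in the levels of Ndn, Meg3, Gnas and Impact was not tested.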

How the data were processed

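HSC from 15 mice were profiled with 3′ biased poly(A)-primed libraries of 20000 to 25000 cells per mouse carrying a 10 bp unique molecular identifier (UMI). Per the study's methods and processing notes, the authors aligned reads to GRCm38 with STAR 2.4.2a, removed duplicated UMIs with Je, counted exonic reads of GENCODE genes with featureCounts and left out genes unless at least 2 samples exceeded 5 reads and 2 CPM. The deposited values are these raw read counts, not normalised. The strand setting is not given in the sources used here.

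The counts were analysed with edgeR 4.0.16 in R 4.3.3 (TMM, all 15 libraries in 1 fit with group as the only factor, quasi-likelihood test, Benjamini-Hochberg adjustment over 16154 genes, adjusted p under 0.05). Standard errors are the log2 fold change divided by the square root of F. CPM use TMM sizes. A value of 3 counts or fewer was not told from absence, which covers counting error only. Total counts ranged from 764119 to 13318989. Alternatives were the likelihood ratio test, DESeq2 1.42.0, limma 3.58.1 (voom), library totals, DESeq2's size factors, a minimum of 10 counts per gene in each library, only the 2 groups compared, counts thinned to the smallest total (NumPy 2.4.6), the replicate number as a block, each library left out and young replicates 1 and 5 left out. The scripts were tested on simulated data. Replicate numbers do not pair the samples: deviations from group means of libraries of the same number had correlations of -0.25 to 0.14.

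Named are all members, at most 4 genes of each other list (smallest adjusted p in any comparison, mean of at least 5 CPM), genes of the same cluster as a member, and, for members with a mean of at least 10 CPM, the 3 genes with the highest Pearson correlation of log2 CPM (prior count 2). Grb10's were Rab40b, Rps6ka6 and Ice2 (r = 0.818, 0.816 and 0.808) and Igf2r's were Fadd, Fmo5 and Kctd7 (r = 0.866, 0.838 and 0.837). Not every gene the rule selects is reported here. Dnmt1, Dnmt3a and Tet3 were named after their values were seen. The members and lists were chosen with earlier results of these data known. Positions and overlaps are from GENCODE M21 (GRCm38), to which 15607 of the 16154 names matched, and miRNA and promoter sequences from RefSeq. H19 and Impact have no entry in the promoter table used. Labels name single mice, so replicates are separate animals.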

Additional observations from a re-analysis of the deposited data

Results flagged for a closer look

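In a search of 27 groups of 5 libraries (9 members in 3 groups) for a library whose gap to its nearest neighbour exceeded 0.71 of the group's range, 2 libraries stood out, where chance marks about 1 group in 20. Igf2r had 88.2 CPM in NR-treated replicate 2, against 35.8 to 48.9 CPM in the other NR-treated libraries. The same library was highest of its group for Meg3, Grb10, Ndn, Plagl1 and Impact. Ndn had 79.5 CPM in aged replicate 4, against 99.2 to 102 CPM in the other aged libraries, and still lay above every young library.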

How the results depend on the processing

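Limits. With 3 to 43 counts for Rian, 0 to 27 for H19 and 0 to 9 for Plagl1 per library, depth limited these genes, and Rian, Gnas, Plagl1 and H19 left the analysis with Meg3 when at least 10 counts were required in every library. The replicate block stands for numbers that do not pair the mice. It raised the members called with NR treatment from 1 to 2, by adding Ndn at -0.53, and changed no other call of a member. The causes of the changes below were not tested, except that thinning and left-out libraries reduce the data.

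Members called with age were 2, and 3 with DESeq2 and with only the 2 groups compared, where Meg3 was added, and 1 with counts thinned to the smallest total and without young replicates 1 and 5. With single libraries left out they ranged from 1 to 3. Members called with NR treatment were 1, and 2 with the likelihood ratio test, with only the 2 groups compared, with the replicate block and without young replicates 1 and 5, and 0 with thinned counts and with at least 10 counts in every library, where Meg3 is not tested. With single libraries left out they ranged from 0 to 2. Members called between NR-treated and young HSC were 2, and 3 with the likelihood ratio test and DESeq2, where H19 was added, and 1 with limma-voom and with at least 10 counts in every library, and 0 with only the 2 groups compared and with thinned counts. With single libraries left out they ranged from 0 to 2.

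Over all genes, 3120 were called with age, 1454 when thinned and 1862 without young replicates 1 and 5. Leaving out 1 library gave 1953 (without aged replicate 3) to 3533. With NR treatment 1303 were called, 783 with at least 10 counts in every library and 406 when thinned. Leaving out 1 library gave 422 (without aged replicate 3) to 1535, with 607 without aged replicate 5 and 538 and 534 without NR-treated replicates 3 and 4. Between NR-treated and young HSC 722 were called, 410 when thinned, and 452 (without NR-treated replicate 4) to 922 with 1 library left out. With library totals the share of called genes that were higher moved from 50.1% to 29.1% with age and from 48.1% to 78.4% with NR treatment, with the median of all genes at -0.16 and 0.16.

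The sign turned for Rian with age (-0.29 to 0.0787 with 1 library left out, turned without young replicate 2 and, at 0.0065, without aged replicate 3), for Plagl1 with age (0.0921 when thinned), for Gnas with age (0.11 when thinned and 0.23 without young replicates 1 and 5) and for Igf2r between NR-treated and young HSC (0.11 when thinned and 0.14 without young replicates 1 and 5). None of these values was called.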
